A study of Mus musculus with 3 samples.

Results

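The genes described here are a named list linked to the transcription factor ATF4, measured in mouse follicular regulatory T (Tfr) cells: enzymes of serine, one-carbon, asparagine and proline metabolism, factors of the stress response, and cytosolic tRNA synthetases. They were chosen by name from a list of 31 genes. A gene entered when a probe set was annotated to its symbol alone, which held for 30 genes and 64 of the 45101 probe sets on the array. They are 10 metabolic enzymes, 7 stress factors and 13 synthetases, and Mars is given under its current symbol, Mars1. Pycr1 was not analysed here. After dim probe sets were set aside, 59 of the 64 remained, and each of the 30 genes kept at least 1.

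Tfr cells express Foxp3, migrate into follicles and limit germinal centre responses. The spleens came from C57BL/6 mice 8 days after immunization with OVA, and the cells were sorted after lineage depletion by staining for CXCR5, CD25, GITR, CD44 and CD4. The wild-type (WT) group was 1 array from a pool of 4 mice. The Rptor-null group was 2 arrays, each from a pool of 8 CD4-Cre-Rptor fl/fl mice, labelled as biological replicates. Rptor encodes raptor, the subunit that defines the kinase complex mTORC1. CD4-Cre is active in developing T cells, so raptor is lost in the T lineage as a whole and not in Tfr cells alone. The ages and sexes of the mice, and whether the WT mice carried Cre or floxed alleles, were not given in the sources used here. The WT array has no replicate, so its values have no error. Means of the Rptor-null arrays carry their SD (n = 2). The p-values combine a gene's own spread between those 2 arrays with that of other genes at a similar level, and lean mostly on the latter. They assume that the WT array varies as the Rptor-null arrays do.

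ATF4 is translated when the initiation factor eIF2 is phosphorylated, which happens when amino acids run short or proteins misfold, and mTORC1 also raises ATF4 output in growing cells. Its targets make serine and glycine, feed one-carbon units into nucleotide synthesis, make asparagine and proline, and charge tRNAs with amino acids. Under prolonged stress it also induces the factors Ddit3, Trib3, Chac1 and Atf3. Dividing T cells draw on serine and one-carbon metabolism for purine synthesis.

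The values are probe-set intensities on a linear scale, with medians of 52.8 (WT), 55.0 and 54.9 (Rptor-null). The ratio of 3' to 5' signal, a measure of RNA integrity, stood at 1.11 for Gapdh in WT, against 1.94 and 2.58 in the Rptor-null pools. The same ratio for Actb was 1.40 in WT, against 2.65 and 2.87. Rptor read 365 in WT against 353 and 412 in Rptor-null cells. Whether its probes fall within the deletion was not analysed here, so the value checks nothing about it. Of the 5 genes of the sort markers 2 were lower and 0 higher, Tnfrsf18, which encodes GITR (3837 in WT against 1549 and 1453 in Rptor-null cells), and Cxcr5 (713 against 374 and 392). Of 6 Tfr identity genes 3 were lower and 0 higher, and all 6 read below WT on both Rptor-null arrays. Foxp3 read 752 in WT, then 587 and 423, and did not pass (adjusted p = 0.0789). Of 8 T cell markers 5 were lower and 0 higher, with a summed intensity of 43087 in WT against 28393 and 27776 in Rptor-null cells. Of 12 myeloid markers 8 were higher and 0 lower, with sums of 44369, 58485 and 66182, and of 5 basophil and mast cell markers 4 were higher, with sums of 1040, 1770 and 2067. No marker read 0, but the lowest value on an array was 5.94 to 6.00, so this says nothing about presence. The 5 B cell markers had none past the test in either direction, with sums of 590.0, 506 and 515. Plasma cell, CD8 T and NK cell, and neutrophil lists had 1 lower and 0 higher of 4, 1 lower and 1 higher of 5, and 0 in either direction of 5. The neutrophil list summed to 20986 in WT against 19520 and 19810 in Rptor-null cells. For the plasma cell list the sums were 8031, 7729 and 8099. Some markers listed for other cell types were therefore bright on the WT array too. The erythroid list had 1 gene tested, Alas2, which did not pass. All 11 mitotic genes were lower, with a median log2 difference of -1.22.

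The comparison asks how these genes differ when T lineage cells lack raptor. In Rptor-null pools the serine synthesis enzymes Psat1 and Psph, the mitochondrial folate enzyme Mthfd2, the proline synthesis enzyme Aldh18a1, the transcription factor gene Atf4 and the synthetase gene Eprs were lower. These calls are for the brightest probe set of each gene. The other kept probe sets of Atf4 and Eprs read above WT, and the mean log2 differences over their probe sets were 0.02 and 0.25. The stress factors Atf3 and Nupr1 were higher. With limma and Benjamini-Hochberg adjustment over 12725 genes, 6 of the 30 genes were lower, where 11.1% of all genes tested were lower. The 2 that were higher stand beside 3.93% of all genes. The largest of these differences was 1.92-fold, that of Psat1.

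After quantile normalization 1 of the 30 was lower, Psat1, and Atf3 and Nupr1 stayed higher. With no variance trend in limma Psat1 and Psph were lower and 0 of the 30 were higher, although 3 of the 30 were higher at an unadjusted p under 0.05. Directions were also counted, with no test. Both Rptor-null arrays read below WT for 23 of the 30 genes, beside 48.7% of all genes, and both read above WT for 4, beside 32.8%. The median log2 difference was -0.27 over the 30 genes and -0.06 over all genes tested. When all genes were split into 5 bins of equal size by level, 15 of the 30 genes lay in the bin next to the brightest and 5 in the brightest, where the medians of all genes were -0.15 and -0.11. In these pooled samples, fewer cells of a type and less RNA per cell cannot be told apart. The part of the T cell, myeloid and mitotic shifts and of the 3' to 5' ratios in these differences was not tested.

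**Figure D1:**
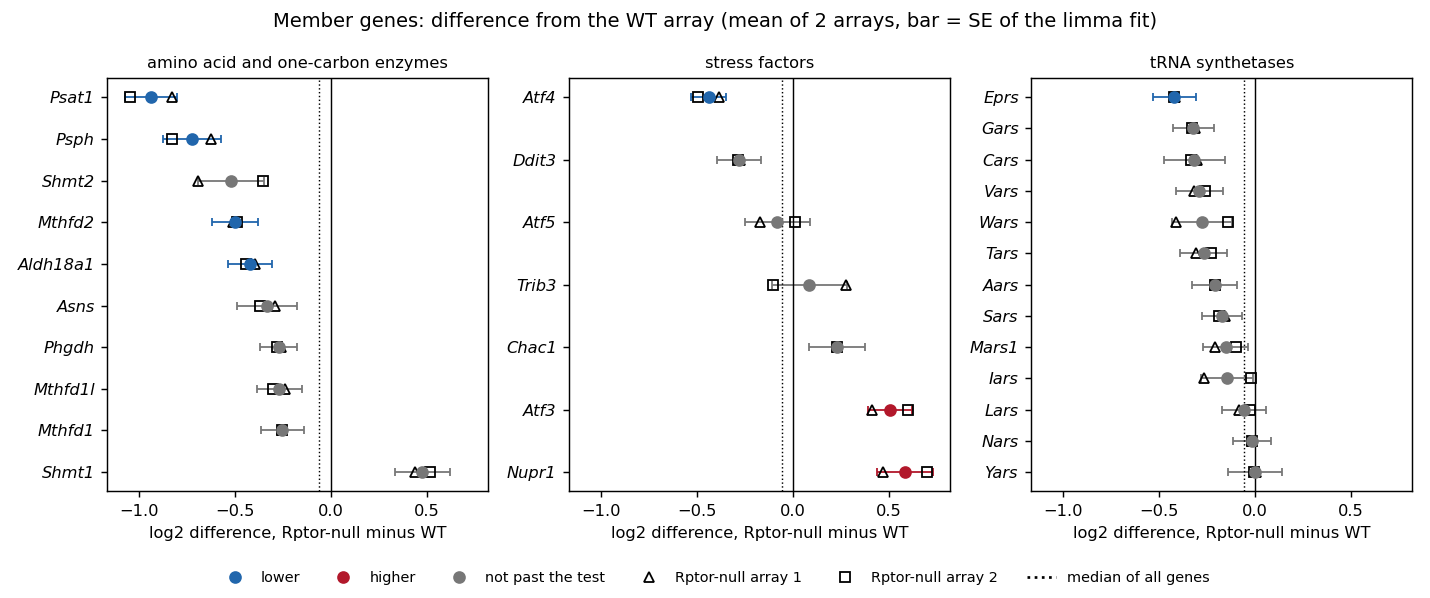
Log2 difference from the WT array for each of the 30 genes, with the mean of the Rptor-null arrays as a filled point and each array as an open symbol. Bars are the limma SE of the difference, which assumes that the WT array varies as the Rptor-null arrays do. Blue genes were lower and red genes higher by limma, and the dotted line is the median of all genes tested, -0.06.

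Serine is made from a glycolytic intermediate in 3 steps, and all 3 enzymes read below WT on both Rptor-null arrays. Psat1, the aminotransferase of the second step, read 804 in WT against 446 and 381 in Rptor-null cells (413 ± 45.9). It fell 1.92-fold (log2 difference -0.94 ± 0.14, SE, adjusted p = 0.00692), with both Rptor-null values far from WT. A second Psat1 probe set read 363 in WT against 210 and 170 in Rptor-null cells, with a log2 difference of -0.89. Psat1 was the gene that passed in 9 of 9 alternatives that could be run with a test, with adjusted p from 0.00013 to 0.0285. The names of its probe sets end in _a_at and _s_at. It therefore had no value in the alternative without probe sets whose names end in _x_at, _s_at or _a_at, and was not checked there.

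Psph, the phosphatase of the last step, read 404 in WT against 256 and 221 in Rptor-null cells (239 ± 25.4). It fell 1.65-fold (log2 difference -0.73 ± 0.15, SE, adjusted p = 0.0203), and did not pass once arrays were quantile normalized (adjusted p = 0.0553). Phgdh, the dehydrogenase that commits the intermediate to serine, read 1649 in WT against 1375 and 1353 in Rptor-null cells on its brightest probe set. Both Rptor-null arrays lay below WT, as for 48.7% of all genes. The log2 difference of Phgdh, -0.27, did not pass (95% interval -0.49 to -0.05, adjusted p = 0.105). All 4 of its probe sets read below WT on both arrays, from -0.26 to -0.64. Each of them has a name ending in _x_at, which marks probes that can match other transcripts. The mean of the 4 gave -0.39 and passed (adjusted p = 0.0482).

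One-carbon units leave serine through the hydroxymethyltransferases, Shmt1 in the cytosol and Shmt2 in mitochondria. The pair read in opposite directions. Shmt1 read 188 in WT against 261 and 276 in Rptor-null cells, a log2 difference of 0.48 ± 0.14 (SE, adjusted p = 0.0669). Shmt2 read 401 in WT against 242 and 310.5 in Rptor-null cells, a log2 difference of -0.52 ± 0.17 (SE, adjusted p = 0.0852). Neither passed the test, while Shmt1 passed with the 60th percentile filter (adjusted p = 0.0419) and after median centring (0.0193), and Shmt2 after median centring (0.043). The direction for Shmt1 rests on the choice of probe set: 2 of its 4 read above WT and 2 below, from -0.58 to 0.51, with a mean of 0.08. The 3 kept probe sets of Shmt2 all read below WT.

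Mthfd2, the mitochondrial dehydrogenase and cyclohydrolase that is high in dividing cells, read 628 in WT against 437 and 443 in Rptor-null cells (440.0 ± 4.07). It fell 1.41-fold (log2 difference -0.50 ± 0.12, SE, adjusted p = 0.031). Both Rptor-null arrays lay far closer to each other than to WT. Its other probe set read 687 in WT against 332 and 373 in Rptor-null cells, a log2 difference of -0.93. The call was lost after quantile normalization (adjusted p = 0.0932) and with no variance trend (0.0626). Mthfd1, the cytosolic enzyme of the same reactions, read 687 in WT and 574 on each Rptor-null array (log2 difference -0.25, 95% interval -0.52 to 0.01, adjusted p = 0.184). Mthfd1l, which releases formate in mitochondria, read 635 in WT and 535 and 513 (log2 difference -0.27, 95% interval -0.54 to 0.00367, adjusted p = 0.173). The difference between the mitochondrial and the cytosolic enzymes was not tested.

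Asparagine synthetase, Asns, is a classical ATF4 target. It was dim on these arrays, at 88.2 in WT against 69.1 and 64.6 in Rptor-null cells, a log2 difference of -0.33 (95% interval -0.70 to 0.04, adjusted p = 0.208). Its second probe set read 37.3 in WT against 31.8 and 32.1 in Rptor-null cells, and its level over both groups was below the filter on dim probe sets. Aldh18a1, which makes the precursor of proline and ornithine, read 769 in WT against 581 and 561 in Rptor-null cells (571 ± 14.1). It fell 1.34-fold on that probe set (log2 difference -0.42 ± 0.11, SE, adjusted p = 0.047). Of its 4 kept probe sets 2 read below WT on both arrays, and the other 2 had arrays on either side of WT, with differences of -0.01 and 0.03. Their mean of -0.17 did not pass (adjusted p = 0.414), nor did the single one left without probe sets whose names end in _x_at, _s_at or _a_at (-0.28, adjusted p = 0.302).

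Across the 10 metabolic enzymes limma called 4 lower and 0 higher (1 higher at an unadjusted p under 0.05), and 6 did not pass, with a median log2 difference of -0.38. The share lower among all genes was 11.1% and the share higher 3.93%. All but Shmt1 read below WT on both Rptor-null arrays, beside 48.7% of all genes. On the same arrays the 11 mitotic genes were lower with a median of -1.22, and the T cell markers had a median of -0.66. Their part in this group's shift was not tested.

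**Figure D2:**
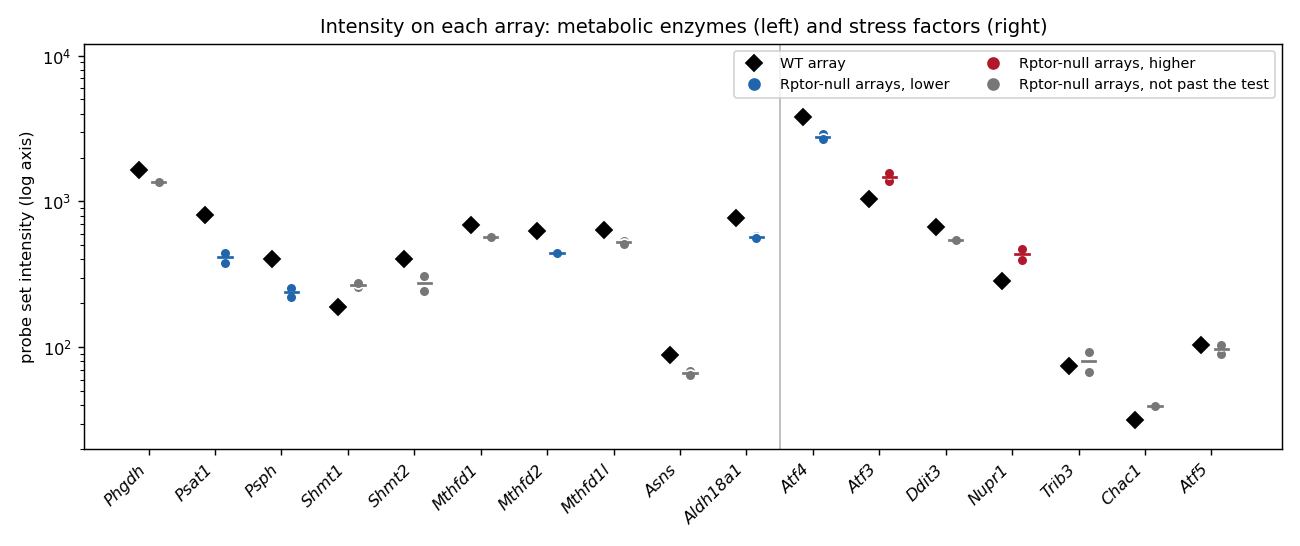
Probe-set intensity (log axis) of the metabolic enzymes and the stress factors on each array, with diamonds for WT, circles for the Rptor-null arrays and a bar for their mean. Psat1, Psph and Mthfd2 lie below WT and Atf3 and Nupr1 above it on both Rptor-null arrays. Heights are to be read within a gene, since probe sets differ in their response.

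The stress factors did not share a direction, with 1 of 7 lower, 2 higher, the other 4 short of the threshold, and a median log2 difference of 0.09. Among all genes 11.1% were lower and 3.93% higher, so a single lower gene of 7 is near the background. Atf4 itself read 3780 in WT against 2891 and 2681 in Rptor-null cells (2786 ± 148). It fell 1.36-fold (log2 difference -0.44 ± 0.09, SE, adjusted p = 0.021). A second probe set of Atf4 read the other way, at 1048 in WT against 1658 and 1286 in Rptor-null cells, a log2 difference of 0.47. The mean of both was 0.02, so the direction for Atf4 depends on which probe set is taken. Array values report mRNA, whereas ATF4 is controlled in large part at translation.

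Atf3, a stress-induced transcription factor, read 1032 in WT against 1378 and 1575 in Rptor-null cells (1476 ± 139). It rose 1.42-fold (log2 difference 0.51 ± 0.11, SE, adjusted p = 0.0266), a call lost with no variance trend (adjusted p = 0.0814). Nupr1, a small chromatin-associated stress protein, read 283 in WT against 399 and 469 in Rptor-null cells (434 ± 49.8). It rose by 0.58 on the log2 scale (± 0.15, SE, adjusted p = 0.0362). Its second probe set read 273 in WT and 289 and 288, a log2 difference of 0.07, and the mean of both did not pass (0.33, adjusted p = 0.117). These arrays also had higher myeloid markers, with a median of 0.63, and higher 3' to 5' ratios. Their part in these increases was not tested.

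The pro-apoptotic factor Ddit3, also called CHOP, read 664 in WT against 545 and 541 in Rptor-null cells (log2 difference -0.28, 95% interval -0.55 to -0.02, adjusted p = 0.148). Both of its probe sets read below WT. Trib3, a pseudokinase, and Atf5, a relative of ATF4, had Rptor-null arrays on either side of WT. Trib3 read 74.3 in WT against 93.3 and 68.1 in Rptor-null cells, and Atf5 read 103 and 90.1 and 104. Chac1, which degrades glutathione, stood near the filter on dim probe sets, at 31.6 in WT and 39.8 on each Rptor-null array (log2 difference 0.23, 95% interval -0.11 to 0.57, adjusted p = 0.343).

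ATF4 binds, with a C/EBP partner, to amino acid response elements, whose core letters were searched in the promoters of the genes. The letters were TGATGNAA on either strand (TTNCATCA when read on the other), from 250 bases before to 50 after each start site in RefSeq's GRCm38.p6 table, which held promoters for 25 of the 30 genes. At least 1 match was found in 10 of the 25, beside 3.97% of all 32851 promoters and 4.51% of the 27025 genes in that table. The genes were chosen for their link to ATF4, so this share describes the choice. Matches were in 1 of the 10 metabolic enzymes (Asns), 4 stress factors (Atf3, Nupr1, Chac1 and Trib3) and 5 synthetases (Aars, Gars, Iars, Tars and Yars). No match was found in 3 stress factors and 3 synthetases. The 5 genes without a promoter there were the synthetases Cars, Lars, Nars, Vars and Wars, which were not searched. Both genes that were higher held a match, and the 6 that were lower held none in this window. A match is a string of letters and not a measured binding site, and its absence says nothing about sites elsewhere. The windows of 5 genes are printed because they set the increased genes beside classical targets that did not pass. They are in the gene's direction, with the matched letters in capitals.
Atf3 (chr1:191183400-191183479, minus strand): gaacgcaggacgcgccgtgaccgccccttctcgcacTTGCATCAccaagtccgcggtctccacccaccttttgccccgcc
Nupr1 (chr7:126625537-126625616, minus strand): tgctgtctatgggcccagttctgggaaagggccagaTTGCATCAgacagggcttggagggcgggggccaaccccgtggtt
Chac1 (chr2:119351013-119351092, plus strand): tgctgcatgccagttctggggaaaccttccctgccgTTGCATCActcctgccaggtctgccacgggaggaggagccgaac
Asns (chr6:7693210-7693268, minus strand): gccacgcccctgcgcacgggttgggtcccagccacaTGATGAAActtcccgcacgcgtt
Aars (chr8:111033694-111033773, plus strand): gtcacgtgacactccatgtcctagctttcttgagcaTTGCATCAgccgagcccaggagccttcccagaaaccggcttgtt
The printed match began at position -110 from the start site in Atf3 and in Nupr1, -193 in Chac1, -23 in Asns and -112 in Aars, which had another at 10. Atf3, Nupr1, Chac1, Aars, Tars and Iars held the same 8 letters, TTGCATCA, and Yars held them on the other strand. Of these 7 genes Atf3 and Nupr1 rose. The others did not pass, with log2 differences of 0.23 for Chac1, -0.21 for Aars, -0.27 for Tars, -0.15 for Iars and -0.00 for Yars. These calls rest on the brightest probe set of each gene. The other probe sets of Aars and Iars read -0.61 and -0.75. Without probe sets whose names end in _x_at, _s_at or _a_at, Aars and Iars were lower, and both hold a match.

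Aminoacyl-tRNA synthetases load each amino acid onto its tRNA. Among the 13 cytosolic synthetases limma called 1 lower and 0 higher (0 higher at an unadjusted p under 0.05 too). Of all genes 11.1% were lower and 3.93% higher, so this count is near the background. Their median log2 difference was -0.21, beside -0.06 over all genes, and it was -0.09 after quantile normalization. For 12 of the 13 both Rptor-null arrays read below WT, beside 48.7% of all genes. The differences of the 13 ranged from -0.42 to -0.00. Yars, for tyrosine, had Rptor-null values on either side of WT, at 244 in WT against 245 and 244 in Rptor-null cells.

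Eprs, a fused enzyme for glutamate and proline, read 770.5 in WT against 574 and 571 in Rptor-null cells (572 ± 2.16). It fell 1.34-fold on that probe set (log2 difference -0.42 ± 0.11, SE, adjusted p = 0.0456). Its 3 other probe sets all read above WT on both arrays, from 0.36 to 0.62, and the mean of the 4 was 0.25 (adjusted p = 0.276). The direction for Eprs therefore differs between its probe sets.

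Of the other synthetases, Gars, for glycine, read 895 in WT against 717 and 710.5 in Rptor-null cells (log2 difference -0.32, 95% interval -0.57 to -0.07, adjusted p = 0.0898). Cars, for cysteine, had a log2 difference of -0.32 and Vars, for valine, one of -0.29, with adjusted p of 0.228 and 0.161. Wars, for tryptophan, and Tars, for threonine, had -0.28 and -0.27. For each of these 5 both Rptor-null arrays read below WT, as for 48.7% of all genes, and none passed. Aars, for alanine, and Iars, for isoleucine, depended on the probe set. On its brightest probe set Aars read 550 in WT and 473 on each Rptor-null array, and on the other 326 in WT and 210 and 205 (log2 difference -0.61). Iars read 671 in WT and 555 and 660.5, and on the other probe set 406 in WT and 221 and 250 (log2 difference -0.75). Both brightest probe sets have names ending in _s_at, which marks probes shared by several transcripts. Without probe sets that end in _x_at, _s_at or _a_at both genes were lower, with adjusted p of 0.0332 for Aars and 0.0206 for Iars.

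Sars, Mars1, Lars and Nars, for serine, methionine, leucine and asparagine, had log2 differences of -0.17, -0.15, -0.06 and -0.02. The 95% intervals of these 4 reached from -0.42 to 0.22 at their widest. Nars read 1136 in WT and 1122 and 1124 on its brightest probe set, and 580, 405 and 438 on the other. After quantile normalization the differences of Lars, Nars and Yars turned to 0.06, 0.11 and 0.08, and after median centring those of Nars and Yars turned to 0.04 and 0.05.

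Counted by probe set, 7 of the 59 were lower and 1 was higher, beside 6.04% and 2.79% of the 27022 probe sets tested. The 7 were both probe sets of Psat1, 1 of 4 of Phgdh, that of Psph, 1 of 2 of Mthfd2, 1 of 2 of Atf4 and 1 of 2 of Iars. The higher one was that of Atf3 (adjusted p = 0.0488). The probe sets that gave the calls by gene for Nupr1, Aldh18a1, Eprs and Mthfd2 did not pass here, with adjusted p of 0.062, 0.0783, 0.0767 and 0.0556. The one counted for Mthfd2 is its other probe set. Of the 59, both Rptor-null arrays read below WT for 43, beside 43.9% of all probe sets, and above WT for 10, beside 35.7%. Of 18 genes with several kept probe sets, 14 had mean differences of 1 sign over their probe sets, 12 below WT and 2 above. The exceptions were Shmt1, Aldh18a1, Atf4 and Eprs. Among all 5641 such genes 50.9% did. Where along the transcript each probe set lies was not analysed here, and the 3' to 5' ratios differed between the groups.

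**Figure D3:**
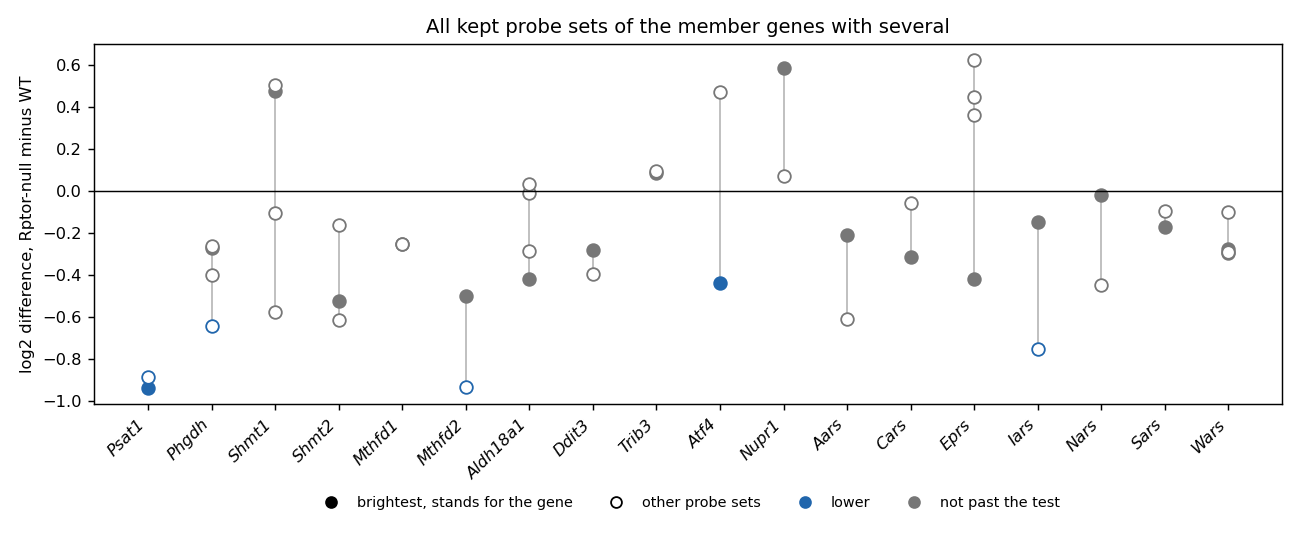
Log2 difference from WT of every kept probe set, for the 18 genes with several, with the brightest one filled. Probe sets of Shmt1, Aldh18a1, Atf4 and Eprs lie on both sides of 0, and those of Psat1, Phgdh, Shmt2 and Mthfd2 all lie below it.

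The rest of the pathway was read from lists that do not hold these 30 genes, and their counts stand beside 11.1% lower and 3.93% higher among all genes. The other cytosolic synthetases and the scaffold proteins of their complex had 4 of 9 members lower and 0 higher, with a median of -0.34. All 9 read below WT on both Rptor-null arrays. The 4 were Kars, for lysine (916 in WT, 649.6 and 580.0 in Rptor-null cells), and the scaffold genes Eef1e1, Aimp2 and Aimp1. Their log2 differences were -0.57, -0.52, -0.49 and -0.44. All 4 calls were lost after quantile normalization and with no variance trend. Mitochondrial synthetases had 1 of 15 lower, Fars2 for phenylalanine (248 in WT, 155 and 153 in Rptor-null cells), and 0 higher, no more than the background share.

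Among eIF2 kinases, eIF2 and its partners, 2 of 15 were lower and 0 higher, near that share, namely Eif2b4, of the exchange factor eIF2B (739 in WT, 521 and 542 in Rptor-null cells), and Eif2s2, a subunit of eIF2. Eif2s2 had an adjusted p of 0.0499, and the mean of its probe sets turned its direction, from -0.39 to 0.03. The kinases themselves, Eif2ak1 to Eif2ak4, did not pass. Other folate and one-carbon enzymes had 2 of 11 lower and 0 higher, a count of genes too small to set apart from the background. Gart, of purine synthesis, read 547 in WT against 349 and 399 in Rptor-null cells, and Ahcy, of the methionine cycle, 946 in WT and 700.3 and 649.9. Their log2 differences were -0.53 and -0.48.

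Other genes linked to ATF4 moved in both directions, with 3 higher and 2 lower of 26 and a median of -0.01. The transcription factor genes Cebpb and Jdp2 and the mTORC1 inhibitor gene Ddit4 were the 3 that were higher. Cebpb read 1584 in WT against 2765 and 2712 in Rptor-null cells, a log2 difference of 0.78 (adjusted p = 0.00421), and Jdp2 read 197 and 361 and 392, one of 0.88 (adjusted p = 0.0087). These 3 increases were larger than those of Atf3 and Nupr1, stood on the same arrays as the higher myeloid markers, and passed after quantile normalization too. Whether myeloid RNA had a part in them was not tested. The glutamine transporter Slc1a5 (814 in WT, 504 and 568 in Rptor-null cells) and the aminotransferase Got1 (388 in WT, 259 and 272), named after its values were seen, were lower. Among 7 other asparagine and proline enzymes Glul, glutamine synthetase, was higher (842 in WT, 1153 and 1322 in Rptor-null cells, log2 difference 0.54) and 0 were lower. Glul did not pass with the mean of its probe sets (adjusted p = 0.129).

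**Figure D4:**
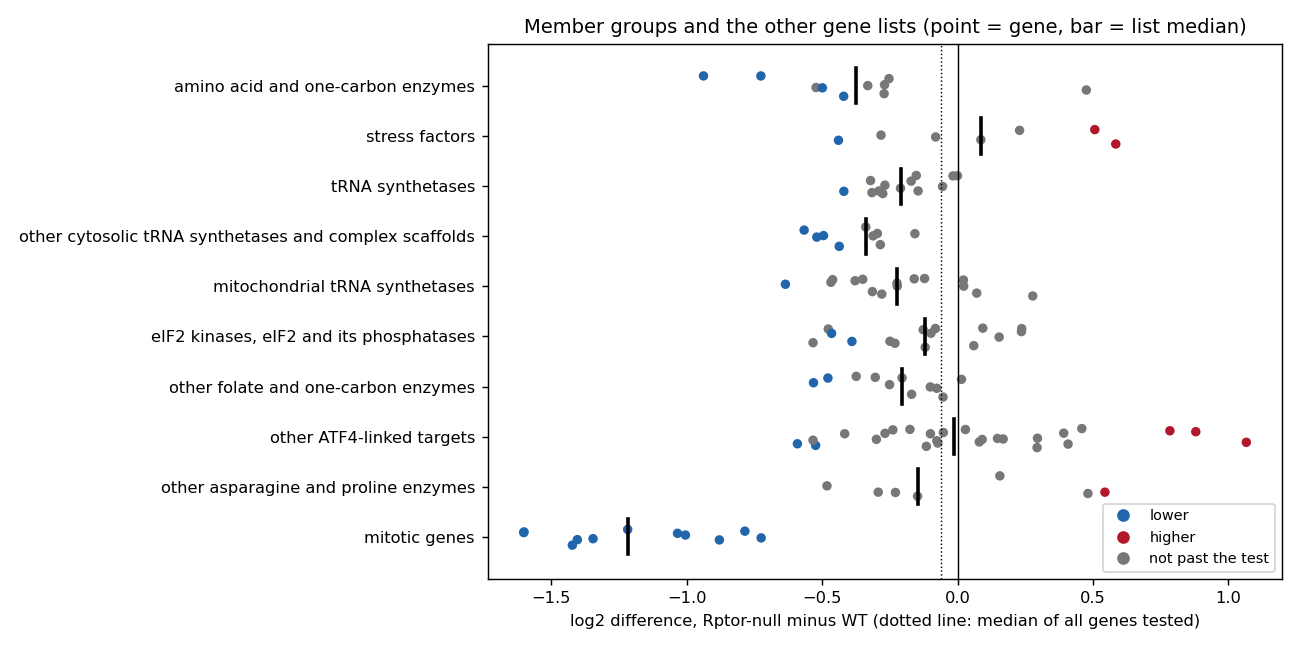
Log2 difference from WT of each gene in the 3 groups of ATF4-linked genes and in 7 other lists, with a bar at each list's median and a dotted line at the median of all genes tested. The metabolic enzymes have a median of -0.38 and the stress factors one of 0.09, and the mitotic genes lie lowest, with a median of -1.22.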

How the data were processed

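The authors deposited probe-set intensities on a linear scale. The submitters' processing notes list MAS5 with no version, and the scaling target and any centring are not given in the sources used here. The lowest value on an array was 5.94 to 6.00. Probe sets were named from the platform annotation, by symbol or by a unique older name (Mars, Gcn1l1). Intensities were taken as log2(intensity + 16), which understates the change of dim genes. Only probe sets above the 40th percentile of level (34.8 intensity units) were used, with 27022 kept, and the brightest stood for a gene. Rptor-null and WT were compared in R 4.3.3 with limma 3.58.1 (lmFit, eBayes with a variance trend), two-sided, over 12725 genes at an adjusted p threshold of 0.05. The fit had 1 residual and 6.46 prior degrees of freedom. It was tested on simulated data in which the WT array varied as the Rptor-null arrays did. That simulation therefore could not check this assumption about the WT array. A second fit used every kept probe set. The arrays carry no detection calls here, so presence above background was not judged, and their number limits the precision.

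The genes and lists were chosen with earlier results of these data known. Every member was named. From each other list, up to 4 genes past the test were named, ranked by whichever of the 2 arrays differed less from WT, with both in the same direction. Alternatives changed the pseudocount, filter, scaling, variance prior, treatment of probe sets and symbol matching, and left out each Rptor-null array.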

Additional observations from a re-analysis of the deposited data

How the results depend on the processing

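Numbers of members past the test, with 6 lower and 2 higher by gene and 7 lower and 1 higher by probe set, changed with the scaling and the variance model. By gene, 1 was lower after quantile normalization, and 2 lower and 0 higher with no variance trend. With the mean of probe sets 1 was higher, as was 1 without probe sets whose names end in _x_at, _s_at or _a_at. In the last of these Nupr1 and Psat1 had no probe set left and were not tested. By probe set, 4 were lower and 0 higher with no filter, 3 lower and 2 higher after quantile normalization, 3 higher after median centring, 2 higher with the 60th percentile filter, 0 in either direction with no variance trend and 0 higher with a robust variance prior. At an unadjusted p under 0.05 in limma, 17 were lower and 6 higher with no variance trend, and 8 were higher with no filter or a robust prior. The cause was not tested. The mean of probe sets reversed Atf4 to 0.016, Eprs to 0.254 and Eif2s2 to 0.033. The median of the stress factors turned to -0.081 with the 60th percentile filter. It turned to -0.027 without probe sets whose names end in _x_at, _s_at or _a_at, where fewer genes were tested. The median of all genes turned to 0.0023 with no filter. By gene, the 2 pseudocounts and exact symbols moved no member across the threshold, and by probe set 8 were lower with a pseudocount of 64. Without the first or the second Rptor-null array no test is possible, since no residual degree of freedom is left. The median of the 30 genes was then -0.24 and -0.26. No paired analysis was possible because the WT group has 1 array and shares fewer than 2 replicate numbers with the Rptor-null group.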
